A study of Mus musculus with 32 samples.

Results

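*Apoc1* and its neighbours in the *Apoe* gene cluster were followed in RNA-seq of the mouse amygdala and hippocampus. The 6 members are *Apoc1*, *Apoe*, *Apoc2*, *Apoc4*, *Tomm40* and *Clptm1*, out of 53715 genes in the tables, and all 6 were present in both regions. *Apoc1* was selected on its higher level in the amygdala of *Kdm5c* knockout mice against wild type, and the other 5 were taken by their position beside it. The question was whether the difference in *Apoc1* extended along the locus.

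Adult male mice of 4 genotypes were used, with 4 mice per genotype and both regions from each mouse, which gave 32 libraries. All mice were F1 hybrids (129xB6) from 129S1/SvImJ *Kmt2a* heterozygous fathers and C57BL/6J *Kdm5c* heterozygous mothers. WT mice carried neither mutation. The group 2a-HET carried 1 copy of *Kmt2a* from which exons 8 and 9 had been deleted, made by crossing a floxed line to a *Rosa26* Cre line. The group 5c-KO carried a constitutive deletion on the single X-linked *Kdm5c* gene, and DM carried both mutations. KMT2A places and KDM5C removes methyl groups on lysine 4 of histone H3. The RNA came from whole dissected tissue, so that fewer cells of a type and less RNA per cell cannot be told apart.

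Apolipoproteins coat lipid particles and direct them to receptors and enzymes. Apolipoprotein E is the main lipid carrier made in the brain, chiefly by astrocytes and, under stress, by microglia. Apolipoprotein C-I is a small protein that exchanges between particles and hinders their uptake. Apolipoprotein C-II activates lipoprotein lipase, and apolipoprotein C-IV is a minor member of the family made mostly in liver. *Tomm40* encodes the channel through which proteins enter mitochondria, and *Clptm1* encodes a membrane protein that retains GABA-A receptors inside the cell. The cluster is conserved between mouse and human, where it is known for the *APOE* alleles linked to Alzheimer's disease.

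All 6 members lie on the minus strand of chromosome 7 (mm10, GENCODE M21 annotation). In order of coordinates they are *Clptm1* (19631571 to 19665033), *Apoc2* (19671579 to 19677941), *Apoc4* (19678083 to 19681479), *Apoc1* (19689481 to 19692660), *Apoe* (19696109 to 19699188) and *Tomm40* (19701313 to 19715438). *Apoe* ends 3.4 kb from *Apoc1*, *Apoc4* lies 8.0 kb away on the other side, and *Apoc2* and *Apoc4* are separated by 0.1 kb. *Gm44805* overlaps *Apoc2* and *Apoc4* on the same strand and had 0 counts in every library. *Gm20512* overlaps *Tomm40* on the opposite strand. The coding part of *Apoc1* is shown because this small message carries the difference described here. It has 267 bases in 3 exons (chr7:19689576-19692468, minus strand, read from the GENCODE M21 transcript of mm10), and the capitals mark the start and stop codons.
Apoc1: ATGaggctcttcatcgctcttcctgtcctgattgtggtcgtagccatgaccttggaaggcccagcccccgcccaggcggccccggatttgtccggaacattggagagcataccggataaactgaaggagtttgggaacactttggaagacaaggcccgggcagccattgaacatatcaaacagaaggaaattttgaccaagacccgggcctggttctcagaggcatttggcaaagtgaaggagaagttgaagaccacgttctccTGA
No stretch of 15 bases or more in an annotated *Apoc1* transcript was shared with a transcript of any other member, and the longest stretch shared with any other gene was 19 bases, in *Apba1*.

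Gene counts per library ran from 19215503 to 26033615 (amygdala) and from 19322262 to 27798980 (hippocampus). Levels are given as normalised counts, that is, counts divided by 1 set of DESeq2 size factors over the 32 libraries. *Kdm5c* averaged 1259 normalised counts in 5c-KO and 1570 in WT amygdala, and *Kmt2a* averaged 4107 in 2a-HET and 4076 in WT amygdala. These totals include exons outside the deleted parts and so do not check the genotypes. Markers of neighbouring or foreign tissue stood out in some libraries. The sum of 8 choroid plexus markers reached 1856 CPM (counts scaled to the gene counts of the library) in DM replicate 1 and 347 in DM replicate 3 of the amygdala, against 38.1 to 76.8 in the other 14. In the hippocampus it ran from 38.9 to 4593, with the highest value in 5c-KO replicate 1. The sum of 5 liver markers reached 79.0 CPM (amygdala) and 151 CPM (hippocampus) in 1 mouse, 2a-HET replicate 2, against at most 19.4 and 28.3 in the other libraries of those regions.

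*Apoc1* was higher in the amygdala of both groups without *Kdm5c*. The 4 WT libraries held 51.2, 67.0, 50.3 and 23.2 normalised counts of *Apoc1*. The 2a-HET libraries held 70.9, 110, 63.6 and 55.8. Those of 5c-KO held 203, 207, 295 and 198. Those of DM held 199, 163, 182 and 136. Every 5c-KO and DM library lay above every WT and 2a-HET library, whereas WT overlapped with 2a-HET and 5c-KO overlapped with DM.

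**Figure D1:**
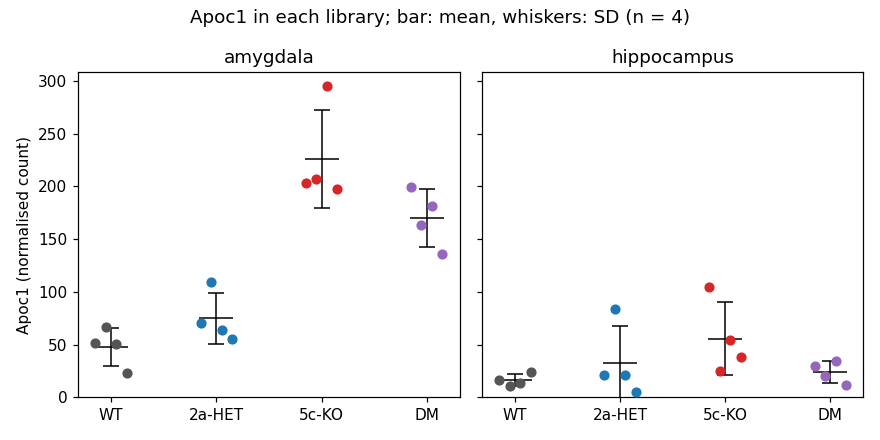
*Apoc1* in normalised counts (vertical axis) in each library of the 4 genotypes, for the amygdala (left) and hippocampus (right), with 1 point per library, the mean as a bar and the SD as whiskers (n = 4). In the amygdala the 5c-KO and DM points start at 136 and the WT and 2a-HET points end at 110, whereas in the hippocampus most groups overlap.

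The comparison of 5c-KO with WT in the amygdala is the one that led to the choice of *Apoc1*, and is therefore a description without a test. The mean was 226 ± 46.4 (SD, n = 4) in 5c-KO and 47.9 ± 18.2 in WT, a ratio of 4.71. All 4 libraries of the first group lay above all 4 of the second for 1.78% of the genes with an adjusted p in that comparison. DM averaged 170 ± 27.2, 3.55 times WT, and this non-overlap was found in 2.17% of genes. DM against 5c-KO gave a log2 difference of -0.40 (SE 0.25). Both of these comparisons share libraries with the one that chose the gene.

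DM against 2a-HET compares other libraries, and asks for the effect of *Kdm5c* loss in mice that all carry the *Kmt2a* mutation. Results of the DM libraries were also known when the gene was chosen, and the estimate of spread is shared by all 16 libraries of the region, so that its p is not fully independent of the choice. *Apoc1* rose from 75.0 ± 23.9 to 170 ± 27.2 normalised counts, a log2 fold change of 1.19 (SE 0.26) with a 95% interval from 0.69 to 1.70, and all 4 DM libraries lay above all 4 of 2a-HET. The adjusted p was 0.00154 by the DESeq2 Wald test and 0.0805 by edgeR's quasi-likelihood test. Of the genes tested, 0.805% were called at an adjusted p under 0.1 in this comparison, and 3.11% had 4 DM libraries above all of 2a-HET. The call was lost with size factors from the ERCC spike-in (log2 fold change 0.80, adjusted p = 1.0), a scaling under which the median of all genes tested moved to -0.32, leaving *Apoc1* 1.11 above that median. It was also lost without DM replicates 1 and 3, the libraries with choroid plexus markers (1.01, adjusted p = 0.302). That fit kept only DM replicates 2 and 4, with 163 and 136 normalised counts, beside at most 110 in 2a-HET.

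For 2a-HET against WT in the amygdala, the log2 difference of *Apoc1* was 0.64 (SE 0.27, interval 0.10 to 1.17, adjusted p = 1.0 by DESeq2), and the *Kmt2a* mutation alone gave no call. Of all genes tested, 0.00988% were called there. In DM against 5c-KO of the amygdala this share was 0.00329%.

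In the hippocampus *Apoc1* was lower and the groups were less separated. The WT libraries held 16.4, 10.96, 13.3 and 24.4 normalised counts, and those of 2a-HET held 21.5, 83.7, 21.2 and 5.09. The 5c-KO libraries held 104, 25.3, 54.1 and 38.0, and those of DM held 29.9, 20.1, 34.3 and 11.9. The lowest 5c-KO library lay just above the highest WT library, and all other pairs compared here overlapped.

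Between 5c-KO and WT in the hippocampus, the log2 difference of *Apoc1* was 1.76 (SE 0.61, interval 0.56 to 2.96), with an adjusted p of 0.215 by DESeq2 and 0.468 by edgeR. The gene was not called. The interval includes the difference seen in the amygdala, but that difference chose *Apoc1* and came from the same mice, so that the regions are not independent. This order of all 4 libraries over all 4 was found in 2.41% of genes, and 1.01% were called. With only these groups in the fit the adjusted p was 0.0395. The highest library, 5c-KO replicate 1, was also the one with the most choroid plexus marker counts, and without it the difference was 1.26. Libraries with 1095 to 1145 CPM of these markers (WT replicate 3, DM replicates 2 and 4, and 5c-KO replicate 4 at 1131) held 13.3, 20.1, 11.9 and 38.0 counts of *Apoc1*. The part of these markers in the difference was not tested.

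DM against 2a-HET in the hippocampus gave -0.45 (SE 0.61, interval -1.65 to 0.74, adjusted p = 1.0 by DESeq2). That value rested on 2a-HET replicate 2, with 83.7 counts, and turned to 0.58 without it. For 2a-HET against WT, 1.01 (SE 0.62, adjusted p = 1.0 by DESeq2) turned to -0.02 without the same library. DM against WT was 0.56 (SE 0.62, adjusted p = 0.907) and DM against 5c-KO was -1.20 (SE 0.60, adjusted p = 1.0), both by DESeq2. None of these was called. The shares of all genes called were 0.606% for DM against 2a-HET, 0% for 2a-HET against WT, 0.881% for DM against WT and 0.0067% for DM against 5c-KO. For 2a-HET against WT no gene was called by DESeq2 or by edgeR.

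The 2a-HET mouse that gave this high value carried liver markers in both regions. Its *Apoc1* was the highest of the 2a-HET libraries in the amygdala (110) as well as in the hippocampus (83.7). Liver expresses *Apoc1*, *Apoc2* and *Apoc4*. In the amygdala, 5c-KO replicate 2 and DM replicates 2 and 4 had 1 count each of *Alb*, the albumin gene, and held 207, 163 and 136 normalised counts of *Apoc1*, while 2a-HET replicate 3, also with 1 count of *Alb*, held 63.6. The liver markers *Fgb*, *Fga* and *Ahsg* had 0 to 2 counts in these libraries. *Serpina1a*, the remaining liver marker, did not go with *Alb* and had 8, 15, 7 and 9 counts in the same order. In the hippocampus the libraries with at most 3 counts of *Alb* were less separated: 5c-KO replicates 2 and 3 held 25.3 and 54.1 of *Apoc1*, 2a-HET replicates 1 and 4 held 21.5 and 5.09, WT replicate 1 held 16.4 and DM replicate 4 held 11.9. The part of liver RNA in the differences was not tested. Across the 16 amygdala libraries the liver sum and *Apoc1* had a Pearson r of -0.147, and across the 16 hippocampus libraries r was 0.427. These are descriptions over libraries that share mice and groups.

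**Figure D2:**
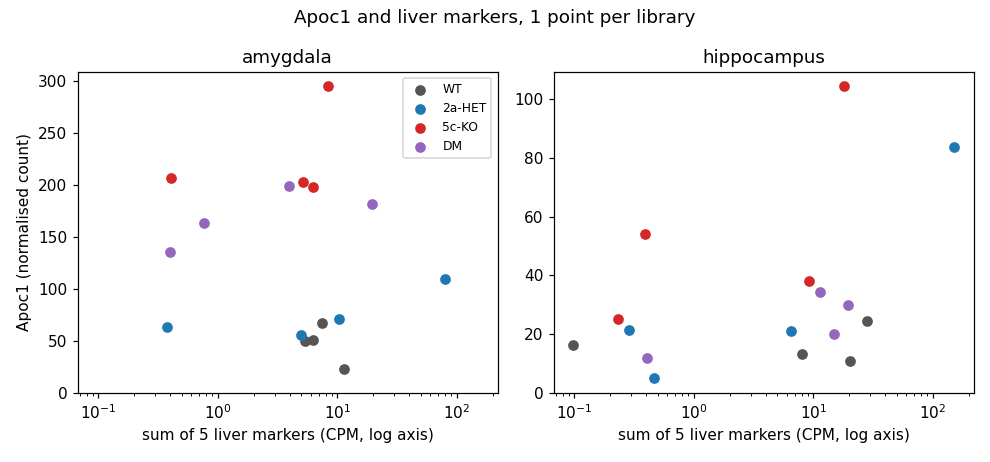
*Apoc1* in normalised counts (vertical axis) against the summed level of 5 liver markers in CPM (horizontal log axis), with 1 point per library coloured by genotype, for the amygdala (left) and hippocampus (right). The points at 79.0 CPM (left) and 151 CPM (right) are the same mouse, 2a-HET replicate 2.

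The regions themselves differed in *Apoc1*. In WT it was lower in the hippocampus than in the amygdala by a log2 fold change of -1.55 (SE 0.48, adjusted p = 0.0109 by DESeq2 and 0.0314 by edgeR), in a comparison that called 21.2% of genes. With the mouse as a block, in WT libraries only, the adjusted p was 0.0338. *Apoe* differed by -0.32 (SE 0.19, adjusted p = 0.279 by DESeq2), *Clptm1* by -0.11 (SE 0.07) and *Tomm40* by -0.06 (SE 0.11), and none of these was called. For *Apoe* this rested on single libraries: it was called without WT amygdala replicate 4 (-0.49, adjusted p = 0.0314 by DESeq2) and was -0.018 without WT amygdala replicate 1. The DM against 2a-HET difference of *Apoc1* was smaller in the hippocampus than in the amygdala with a log2 value of -1.63 for hippocampus minus amygdala (SE 0.66, unadjusted p = 0.0131, adjusted p = 1.0 by DESeq2), in a test that called 0.0156% of genes. Without the mouse with liver markers the log2 difference of hippocampus minus amygdala was -0.84 (adjusted p = 1.0 by DESeq2), a setting chosen after seeing the data. With the mouse as a block over all 32 libraries, also added after seeing the data, it was -1.27 (adjusted p = 1.0 by DESeq2).

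Ordered by mean, *Apoc1* ran from 226 in 5c-KO amygdala through DM amygdala (170), 2a-HET amygdala (75.0), 5c-KO hippocampus (55.4), WT amygdala (47.9), 2a-HET hippocampus (32.9) and DM hippocampus (24.0) to WT hippocampus (16.3). The step between DM and 2a-HET amygdala was the only one of the 7 at which the libraries of adjacent groups did not overlap.

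Most *Apoc1* counts were assigned to 1 transcript. ENSMUST00000045035.11 took 92.0% of them and ENSMUST00000108451.3, also annotated as protein coding, took 7.98%. The other 2 annotated transcripts were at 0 in every library. In the amygdala the first averaged 45.5 normalised counts in WT, 71.5 in 2a-HET, 203 in 5c-KO and 156 in DM. The second averaged 2.47, 3.43, 22.6 and 14.3 in the same order. These means are a description. The libraries of the second overlapped, with 4.25 in the lowest of DM and 6.76 in the highest of 2a-HET. In the hippocampus the first averaged 15.85 in WT, 31.9 in 2a-HET, 51.3 in 5c-KO and 20.7 in DM.

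*Apoe* was the most abundant member, and its 4 genotypes overlapped in both regions. Per kilobase of exon, WT amygdala held 30010 normalised counts of *Apoe*, 900.5 of *Clptm1*, 423 of *Tomm40* and 64.4 of *Apoc1*. In the amygdala the *Apoe* counts were 100160, 58999, 58359 and 39115 in WT and 71775, 61507, 61368 and 57141 in 2a-HET. They were 87774, 58431, 58951 and 57784 in 5c-KO and 74179, 55719, 62669 and 66892 in DM. The WT range held all other libraries.

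In the hippocampus *Apoe* ran from 42227 to 62116 in WT, from 45780 to 58330 in 2a-HET, from 52885 to 73802 in 5c-KO and from 49092 to 60152 in DM. For DM against 2a-HET of the amygdala, where *Apoc1* was called, *Apoe* differed by 0.05 (SE 0.22, interval -0.38 to 0.47). The largest *Apoe* difference in the 5 comparisons of either region was 0.20 (SE 0.14, adjusted p = 0.82 by DESeq2), for 5c-KO against WT in the hippocampus. For 5c-KO against WT of the amygdala the *Apoe* difference was 0.03 (SE 0.22), and its interval allows at most a 1.37-fold increase. Leaving out 1 library at a time moved it between -0.14 and 0.34.

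The spread of *Apoe* within groups went with the library number. In 7 of 8 groups the library numbered 1 held the most *Apoe*, at a median of 1.25 times the mean of the other 3. *Tomm40* was highest in these libraries in 7 of 8 groups as well, and *Apoc1* in 2 of 8. Over the 16 amygdala libraries the sum of 12 microglial markers and *Apoe* had a Pearson r of 0.855, and over the 16 hippocampus libraries it was 0.646. The sum of 10 astrocyte markers gave -0.175 and -0.195. For *Apoc1* the microglial sum gave 0.0718 (amygdala) and 0.0771 (hippocampus), the astrocyte sum 0.478 and -0.064, and the choroid plexus sum 0.317 and 0.267. The part of these cell types in the *Apoc1* difference was not tested. The libraries share mice and numbers, and no p is given.

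*Tomm40* and *Clptm1*, on either flank of the cluster, overlapped between genotypes as well. In the amygdala *Tomm40* averaged 1909 ± 261 in WT, 1843 ± 114 in 2a-HET, 1858 ± 265 in 5c-KO and 1711 ± 263 in DM (SD, n = 4). *Clptm1* averaged 5592 ± 305, 5651 ± 263, 5493 ± 392 and 5656 ± 460 in the same order. For DM against 2a-HET the log2 difference was -0.10 (SE 0.14) for *Tomm40* and 0.01 (SE 0.08) for *Clptm1*. In the hippocampus *Tomm40* ran from 1528 to 1990 and *Clptm1* from 4398 to 5503 over the 16 libraries.

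**Figure D3:**
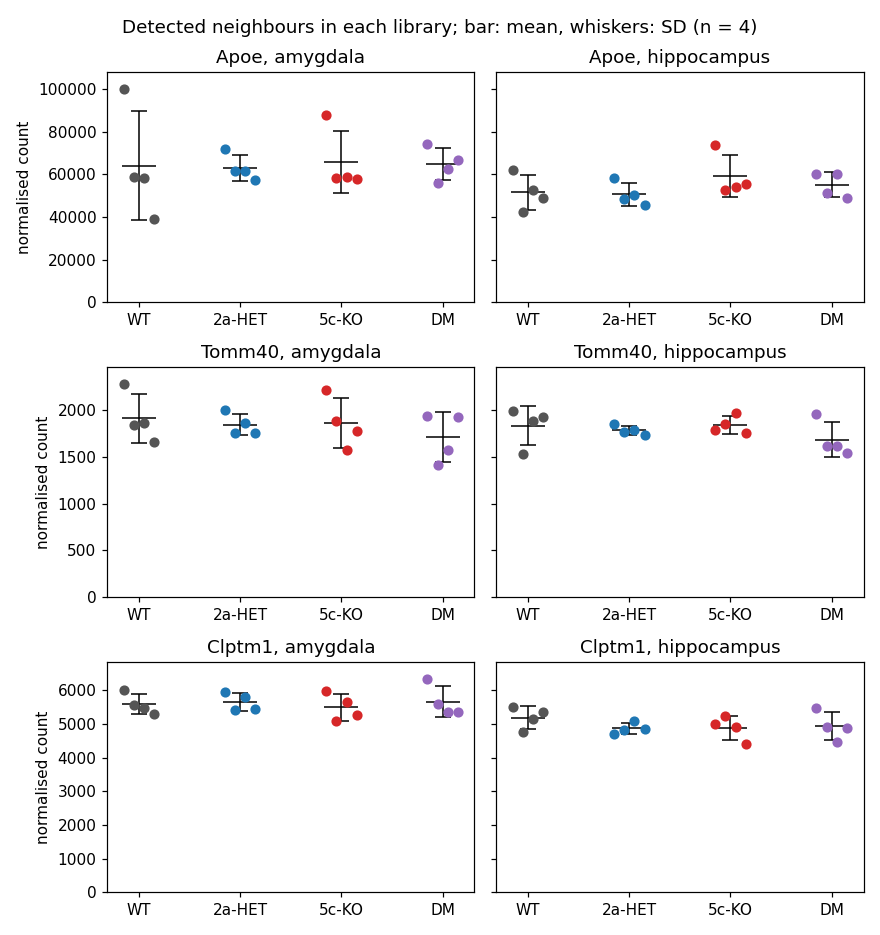
Normalised counts (vertical axes) of *Apoe* (top), *Tomm40* (middle) and *Clptm1* (bottom) in each library of the 4 genotypes, for the amygdala (left) and hippocampus (right), with the mean as a bar and the SD as whiskers (n = 4). The groups overlap in every panel, and the highest *Apoe* point is the WT amygdala library at 100160.

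*Apoc2* and *Apoc4*, the closest apolipoprotein genes on the other side of *Apoc1*, were at or near 0. *Apoc2* was at 0 in 21 of 32 libraries and passed 3 counts in 1 of them. *Apoc4* was at 0 in 17 and passed 3 counts in 2. The libraries with most of both were those of the mouse with liver markers: 2a-HET replicate 2 held 7.68 normalised counts of *Apoc4* and 4.39 of *Apoc2* in the amygdala. Its hippocampus held 8.13 of *Apoc4* and 3.49 of *Apoc2*. In the 5c-KO amygdala, where *Apoc1* was highest, *Apoc4* was at 0 in all 4 libraries and *Apoc2* did not pass 1.03. All groups averaged under 3 counts, so no fold change is given. A change within such counts was not detectable at this depth.

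None of the 5 neighbours was called in any of the 5 comparisons of either region, by DESeq2 or by edgeR, and none had an unadjusted p under 0.05. *Apoe*, *Tomm40* and *Clptm1* had an adjusted p in every comparison, while *Apoc2* and *Apoc4* had none in 6 of 10 and were not tested by edgeR. The share of all genes called in 5c-KO against WT of the amygdala was 0.756%, and in DM against WT it was 0.99%, so that a count of 0 of 5 does not set the neighbours apart from other genes. Over *Apoe*, *Tomm40* and *Clptm1* no log2 difference passed 0.20 in these comparisons.

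The ratio of *Apoc1* to each neighbour was compared within libraries, which for the abundant neighbours nearly removes the scaling. In the amygdala the log2 ratio of *Apoc1* was higher in DM than in 2a-HET by 1.16 against *Apoe*, 1.32 against *Tomm40* and 1.21 against *Clptm1*, beside the 1.19 of *Apoc1* alone. With neighbours that differed little, these ratios restate the separation of *Apoc1* and are a description, not a further test. The ratios to *Apoc2* and *Apoc4* are not read, since their counts were at or near 0. In the hippocampus the differences against *Apoe*, *Tomm40* and *Clptm1* were -0.07, 0.14 and 0.04, and none kept its sign when single libraries were left out.

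Within 500 kb of the *Apoc1* start on either side lay 69 other genes, of which 31 had a mean of 10 counts or more in the amygdala. In DM against 2a-HET of the amygdala the median log2 difference of these 31 was 0.00, and 2 of the 37 genes tested in the window were called, where 0.805% of all genes tested were. *Gpr4*, a proton-sensing receptor 480 kb away, fell by 0.67 (SE 0.15, adjusted p = 0.00323 by DESeq2 and 0.0542 by edgeR). It averaged 141 ± 5.51 in 2a-HET, 88.4 ± 7.88 in DM and 106 ± 12.4 in WT. *Nkpd1*, 175 kb away, rose by 1.09 (SE 0.28, adjusted p = 0.0243 by DESeq2), but was not called by edgeR (adjusted p = 0.192). Its call was also lost with ERCC size factors and without the libraries numbered 1. The same held when 2a-HET replicate 1, 3 or 4 or DM replicate 1 was left out singly. *Nkpd1* held 32.5, 53.7, 31.8 and 34.2 normalised counts in 2a-HET and 99.6, 76.8, 54.8 and 89.1 in DM. Against WT amygdala it differed by 0.78 in DM (SE 0.28, adjusted p = 0.268 by DESeq2). The difference was 0.64 in 5c-KO (SE 0.28, adjusted p = 0.684 by DESeq2) and -0.31 in 2a-HET (SE 0.29). Against WT hippocampus *Nkpd1* differed by -1.19 in 2a-HET (SE 0.36), 0.10 in 5c-KO (SE 0.325) and -0.11 in DM (SE 0.327). None of these differences from WT was called. In the other 9 comparisons no gene of the window was called, out of 35 to 50 tested. The share of all genes called there was 0 to 1.01%, so that a count of 0 does not set the window apart from other genes.

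**Figure D4:**
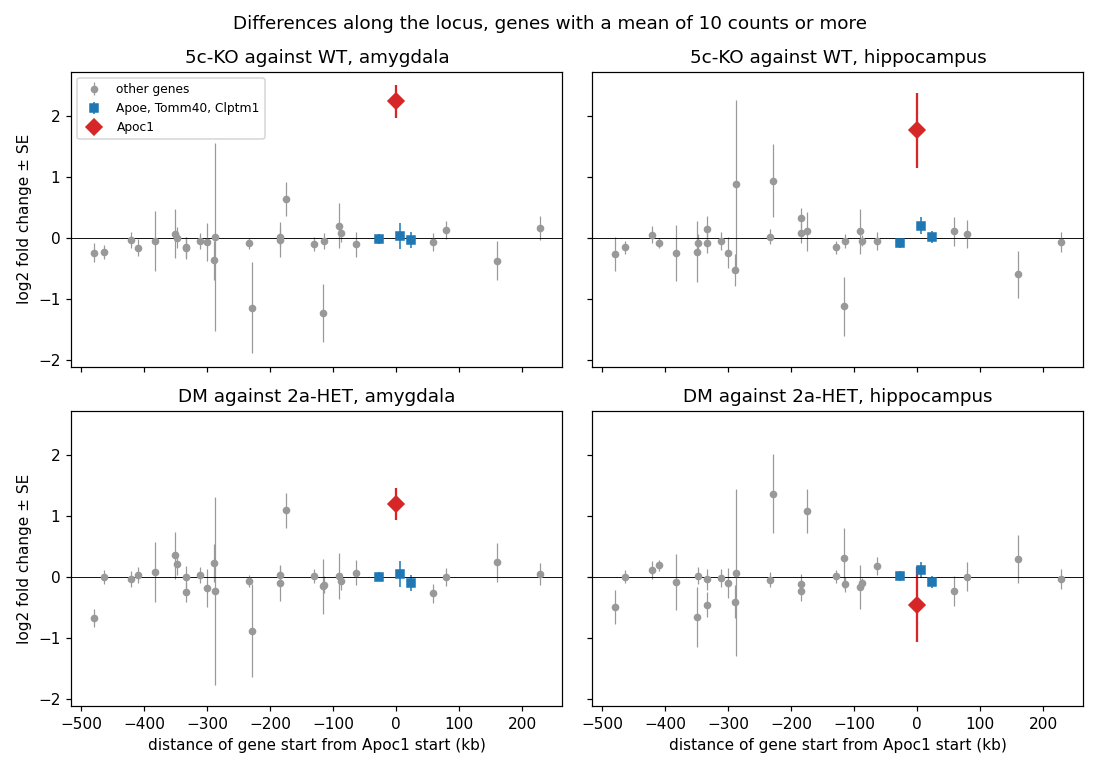
Log2 fold change with its SE (vertical axes) against the distance of each gene's start from the *Apoc1* start in kb (horizontal axes), for genes with a mean of 10 counts or more, in 5c-KO against WT (top) and DM against 2a-HET (bottom) of the amygdala (left) and hippocampus (right). *Apoc1* (diamond) lies at 2.24 and 1.19 in the amygdala panels, while *Apoe*, *Tomm40* and *Clptm1* (squares) lie within 0.20 of 0 in all 4.

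Other genes of lipoprotein transport were read from a list of 48 apolipoproteins, receptors, transporters, lipases and their regulators. Of these, 1 was called in 10 comparisons. *Rxra*, a nuclear receptor that partners the liver X receptors, rose by 0.39 (SE 0.10, adjusted p = 0.0408 by DESeq2) in 5c-KO against WT of the amygdala, where 41 genes of the list were tested and 0.756% of all genes were called. It was not called by edgeR (adjusted p = 0.164). The list median there was -0.04, beside -0.01 over all genes tested. In DM against 2a-HET of the amygdala none of 42 tested was called, 4 had an unadjusted p under 0.05 beside 1360 of the 19620 genes tested, and the list median was 0.00, as was that of all genes. The 4, named after their values were seen, were *Apoa5* (adjusted p = 0.259 by DESeq2), *Abcg4* (log2 difference -0.24, adjusted p = 0.315 by DESeq2), *Apoa1* (-2.12, 0.719) and *Apoc3* (-1.21, 0.737), and none of them was called. *Apoa5* reached only 0.96 normalised counts in DM, beside 27.4 in 2a-HET, so that no fold change is given for it. *Apoa1* ran from 7.73 to 292 normalised counts in 2a-HET, the group with the mouse that carried liver markers, and from 1.76 to 44.2 in DM.

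The genes whose levels followed *Apoc1* most closely over the 32 libraries, after subtraction of the region mean, were *Phlda3*, *Phyh*, *Tmem176a*, *B3gnt9* and *Hexim2*, with a Pearson r from 0.76 to 0.81 among 14635 genes. None lies in the cluster. Only the region mean was subtracted, so that r includes the genotype difference on which *Apoc1* was chosen, and the log2 differences of these 5 between 5c-KO and WT amygdala ran from 0.43 to 0.92. By Spearman's rho *Npepl1* took the place of *Tmem176a*. *Hexim2*, an inhibitor of the elongation factor P-TEFb, had an r of 0.88 within the amygdala libraries and 0.65 within those of the hippocampus. *Phyh*, which starts the breakdown of branched fatty acids in peroxisomes, had 0.83 and 0.77. For *Apoe* they were *Clu*, *C1qa*, *Slc3a2*, *Rpl18* and *Cox4i1*, with an r from 0.90 to 0.92. *Clu* encodes another brain apolipoprotein and *C1qa* a complement component of microglia. The *Apoe* list depends on the measure: by Spearman's rho the 5 closest were *Atp5o*, *Pdlim4*, *Tmem50a*, *Lamtor2* and *Ndufb8*.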

How the data were processed

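Total RNA from microdissected amygdala and hippocampus received ERCC spike-in RNA and was made into directional oligo-dT libraries. The authors mapped reads to mm10 with STAR 2.5.3a, kept unique reads, removed duplicates and counted them. The deposited tables hold expected counts per gene and transcript. The submitters' notes name featureCounts (Subread 1.5.0), yet 7.08% of gene values are not whole (tolerance 1e-09), so that the estimator is not settled. Values were rounded to whole numbers here. No reads were mapped here.

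The test across genes was the Wald test of DESeq2 1.42.0 under R 4.3.3 ( all 16 libraries of a region, a term for genotype, unshrunken log2 fold changes). DESeq2 is the tool the study names, and these settings were chosen here. A gene was called where the adjusted p (Benjamini-Hochberg) was under 0.1. The test was tried on simulated counts with known changes, drawn with dispersions that edgeR estimated without the genotypes. It recovered most of the changes, but with a larger share of false calls than the threshold allows, whereas edgeR's quasi-likelihood test stayed within it. Other sources of the dispersions were not tried, so that the comparison of the tools holds for that setting only. edgeR's adjusted p is therefore given beside the calls of *Apoc1*, of window genes and of lipoprotein genes. Region differences were tested in 1 fit of 32 libraries. Both regions of a mouse carry the same number, and their deviations correlated at a median of 0.19, above 0.1 in all 4 WT mice, so that the mouse was a block in an alternative. Ratios used a pseudocount of 1.

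The members and lists were chosen with earlier results of these data known. Named genes were the members, every called gene of the window or lipoprotein list, and the 5 genes most correlated with *Apoc1* and with *Apoe* at a mean of 20 counts or more. Alternatives were TMM and ERCC scaling, a filter (10 counts in 4 libraries), fits of only the groups compared, the replicate block, and fits without single libraries or those numbered 1. Leaving out libraries with choroid plexus or liver markers, and the mouse block for the *Apoc1* difference between regions, were added after the data were seen. Symbols came from GENCODE M21 for 53620 genes.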

Additional observations from a re-analysis of the deposited data

Results flagged for a closer look

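Within a group of 4 libraries, a value was set apart when its gap to the nearest other library took more of the group's range than Dixon's 95% critical value allows, which chance gives in about 1 of 20 groups. Of 38 groups in which a member passed 3 normalised counts in some library, 6 held such a value. Groups of *Apoc2* and *Apoc4* entered only through their highest library, so that the rate given for chance does not hold for them. The count of 6 is therefore not set against that rate. *Apoc1* was high in 5c-KO replicate 3 of the amygdala (295.0 normalised counts). *Apoe* was high in 5c-KO replicate 1 in the amygdala (87770) and hippocampus (73800), both from 1 mouse. *Apoc4* was high in 2a-HET replicate 2 in the amygdala (7.675) and hippocampus (8.133), the mouse with liver markers. *Apoc2* was high in DM replicate 4 of the hippocampus (3.242), against 0 in the other 3 libraries.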

How the results depend on the processing

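For 106 results, 1570 alternative values were computed. The neighbours had 750 of them between genotypes, of which 0 were called and 91 had the other sign than the reported difference. The *Apoc1* difference of DM against 2a-HET in the amygdala stayed between 1.07 and 1.42 without single libraries and past the threshold each time, and was 1.09 (adjusted p = 0.0914) without the libraries numbered 1. It was no longer called with ERCC size factors (0.80) or, chosen after seeing the data, without DM replicates 1 and 3 (1.01). In the hippocampus, 5c-KO against WT passed the threshold with only the groups compared (1.75, adjusted p = 0.0395) and ran from 1.26 to 2.04 without single libraries. DM against WT turned to -0.12 with ERCC size factors, where the median of all genes moved to -0.47. Without single libraries 2a-HET against WT ran from -0.023 to 1.36 and DM against 2a-HET from -0.81 to 0.58. Both also turned (-0.021 and 0.58) without 2a-HET replicate 2 and 5c-KO replicate 1 together, chosen after seeing the data.

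Without single libraries, the hippocampal DM minus 2a-HET difference in the log2 ratio of *Apoc1* ran from -0.65 to 0.59 to *Apoe*, from -0.48 to 0.78 to *Tomm40* and from -0.59 to 0.68 to *Clptm1*, and so had no stable sign. The values to *Apoc4* (-0.62 to 0.017) and *Apoc2* (-0.058 to 1.12) are not read, since those counts were at or near 0. The WT region difference ran from -0.49 (without WT amygdala replicate 4, adjusted p = 0.0314 by DESeq2) to -0.018 for *Apoe* and from -0.12 to 0.038 for *Tomm40*.

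In the 500 kb window of the amygdala, the 2 calls of DM against 2a-HET became 1 by edgeR, without the libraries numbered 1, without DM replicates 1 and 3, or within 250 kb, 0 with ERCC size factors, and 1 to 2 without single libraries. The count of 0 for 5c-KO or DM against WT became 0 to 1 without single libraries, and with the replicate block 1 gene was called in hippocampal 2a-HET against WT, DM against 2a-HET and DM against 5c-KO. The 1 lipoprotein call of 5c-KO against WT in the amygdala became 0 by edgeR, with ERCC size factors, with only the groups compared or without the libraries numbered 1, 2 with the replicate block, and 0 to 1 without single libraries. The count of 0 became 1 for DM against WT in the amygdala with the replicate block or without the libraries numbered 1, and 0 to 1 without single libraries; 1 for DM against 2a-HET in the amygdala with only the groups compared, and 0 to 1 without single libraries; 1 for DM against 5c-KO in the amygdala with the replicate block; and 1 in the hippocampus for DM against WT without the libraries numbered 1 and for DM against 2a-HET without 2a-HET replicate 2 and 5c-KO replicate 1.

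No label says that the numbers 1 to 4 pair mice across genotypes. Same-numbered libraries correlated over 0.1 in 0 to 3 of 4 pairs, although number 1 was highest for *Apoe* and for *Tomm40* in 7 of 8 groups. With the replicate block, *Apoc1* of DM against 2a-HET in the amygdala was 1.21 (adjusted p = 8.42e-05) and the calls over all genes rose from 158 to 536. edgeR called 61 genes there and ERCC scaling 6. For 5c-KO against WT of the amygdala, 144 calls compare with 69 by edgeR, 23 with ERCC scaling and 518 with the block. For the hippocampus, 195 calls in 5c-KO against WT compare with 70, 19 and 516, and 117 in DM against 2a-HET with 54, 2 and 428. The cause of these changes was not tested. *Apoc2* and *Apoc4* are limited by depth.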
